A study of Mus musculus with 20 samples.

Results

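Plerixafor tumours were compared with Solution tumours, the control named in the labels, by RNA-seq of 5 libraries in each group. All tumours were grown from U14, a cervical cancer line of the mouse. The genes described are the 12145 of 18722 in the table whose FPKM was 1 or more in 5 or more of these 10 libraries. FPKM counts the fragments of a gene relative to its length and to the depth of the library, so levels of different genes can be set side by side per length. The series also holds 5 libraries each from anti-PD-1 tumours, which received an antibody to PD-1, and from Combination tumours, which received it with Plerixafor. These served as an independent comparison. The study asked about CXCR4, the transcription factor TOX and the exhausted state of CD8+ T cells. The labels give the cell line, the tissue and the agent for each library, and no strain, dose, schedule, age or count of animals. They do not say whether libraries came from separate animals, so p-values measure only the spread between libraries.

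CXCR4 is a chemokine receptor whose ligand, CXCL12, is made mainly by stromal cells, and ACKR3 is a second receptor that takes up the same ligand. Plerixafor is a small molecule that blocks CXCR4 on the cell surface. The receptor guides the movement of lymphocytes, myeloid cells and some tumour cells, and plerixafor is used in the clinic to release blood stem cells from the marrow. An mRNA profile of whole tumour reports every cell type in it at once.

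Depth recovered from the FPKM steps was 17392027 to 18774688 reads per library in Plerixafor tumours and 18479251 to 19820124 in Solution tumours. The first principal component held 88.3% of the variance of the 10 libraries and separated the groups. Plerixafor 5 stood apart on it, at -24.51, against -85.62 to -70.36 for the other Plerixafor libraries and 67.16 to 71.15 for the Solution libraries. Each Plerixafor library was also placed between the mean of the other Plerixafor libraries (0%) and the Solution mean (100%), gene by gene. Over the 2415 genes higher in Plerixafor by more than 2-fold, the median place of Plerixafor 5 was 39.5%. Over the 2360 genes lower by more than 2-fold it was 33.3%, while the other 4 libraries lay between -16.2% and 2.2% in both sets. Without Plerixafor 5, 76 of 102 gene families kept their numbers of genes called higher and lower, 23 changed by 1 or 2 genes in a direction and 3 by more. Values without it are given where a call was lost or gained, and for the families described here that changed by more than 2 genes. Group levels below are means ± SD over the 5 libraries of each group.

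The targeted receptor and its ligand were both lower at the RNA level in Plerixafor tumours. Cxcr4 had 4.92, 4.98, 8.13, 5.42 and 15.5 FPKM in Plerixafor tumours 1 to 5, against 50.4, 51, 23.9, 50.8 and 50.8 FPKM in Solution tumours 1 to 5. The groups did not overlap, with Plerixafor 5 the highest of its group and Solution 3 the lowest of its own. Its log2 fold change, here and below the difference in log2(FPKM + 1), was -2.47 ± 0.31 (SE), with an adjusted p of 2.74e-05 in limma with Benjamini-Hochberg adjustment. This scale understates the change of genes with low levels.

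Cxcl12, the ligand, had 10.8, 6.81, 11.9, 9.4 and 49.5 FPKM in Plerixafor tumours 1 to 5, against 101, 57.1, 129, 67.2 and 61.2 FPKM in Solution tumours 1 to 5. Plerixafor 5 alone came near the Solution range, and the groups still did not overlap (log2 fold change -2.47 ± 0.46, limma adjusted p 0.000438). Ackr3, the second receptor for this ligand, had 29.2, 28.9, 32.8, 25.1 and 32.6 FPKM in Plerixafor tumours 1 to 5, against 29.6, 25.9, 21.3, 32.3 and 39.9 FPKM in Solution tumours 1 to 5. Its groups overlapped almost fully, at a log2 fold change of 0.02 ± 0.15 (adjusted p 0.91), and the sign turned under 8 other settings.

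Of the other genes in the study's question, Pdcd1, which encodes PD-1, had 2.09, 1.46, 3.47, 1.58 and 4.49 FPKM in Plerixafor tumours 1 to 5, against 11.4, 14.7, 16.7, 10.5 and 17 FPKM in Solution tumours 1 to 5. The groups were apart, at a log2 fold change of -2.10 ± 0.23 (limma adjusted p 1.13e-05). Tox averaged 0.284 ± 0.127 FPKM in Plerixafor tumours and 2.7 ± 1.29 FPKM in Solution tumours (SD, n = 5 each), at a log2 fold change of -1.47 ± 0.19. It entered the comparison only through the Solution libraries, all 5 of which had an FPKM of 1 or more against none of the Plerixafor libraries, so its test had to find a difference and no p is given. Jak2, a cytokine receptor kinase, fell by less (9.31 ± 2.02 FPKM in Plerixafor and 13.6 ± 2.25 FPKM in Solution, log2 fold change -0.51, adjusted p 0.00775). Stat3, a transcription factor that JAK kinases activate, had 51.8 ± 9.8 FPKM in Plerixafor and 61.7 ± 4.9 FPKM in Solution and did not pass (log2 fold change -0.26, adjusted p 0.0666). Stat3 passed in 7 other settings, among them the fit without Plerixafor 5, at -0.35 with an adjusted p of 0.01.

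These falls came with a lower summed level of most immune and stromal marker lists. A share is summed over all genes of a list in the table, and the counts are over those tested. The 15 macrophage genes made up 0.325% to 1.53% of all FPKM in Plerixafor tumours, against 2.89% to 3.84% in Solution tumours, and all 14 tested genes fell. The T cell list made up 0.00573% to 0.0363% of all FPKM in Plerixafor tumours, against 0.0544% to 0.0843% in Solution tumours, and all 13 tested genes fell, among them Cd8a, a co-receptor of cytotoxic T cells (4.28 ± 2.78 FPKM in Plerixafor and 23.5 ± 6.67 FPKM in Solution). The 12 fibroblast genes made up 0.131% to 0.579% of all FPKM in Plerixafor tumours, against 1.47% to 2.55% in Solution tumours, and all fell. The 12 neutrophil genes made up 0.00391% to 0.026% of all FPKM in Plerixafor tumours, against 0.0728% to 0.145% in Solution tumours, and all 10 tested genes fell. For the endothelial list the shares were closer, at 0.024% to 0.0454% of all FPKM in Plerixafor tumours, against 0.0469% to 0.0615% in Solution tumours, with 9 of 12 tested genes lower and 1 higher. In whole tumour, fewer cells of a type and less RNA per cell cannot be told apart. The part of these lists in each change described here was not tested.

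The background against which such counts stand is high, since 82.8% of the tested genes passed the threshold in either direction, 47.0% higher and 35.8% lower in Plerixafor.

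**Figure D1:**
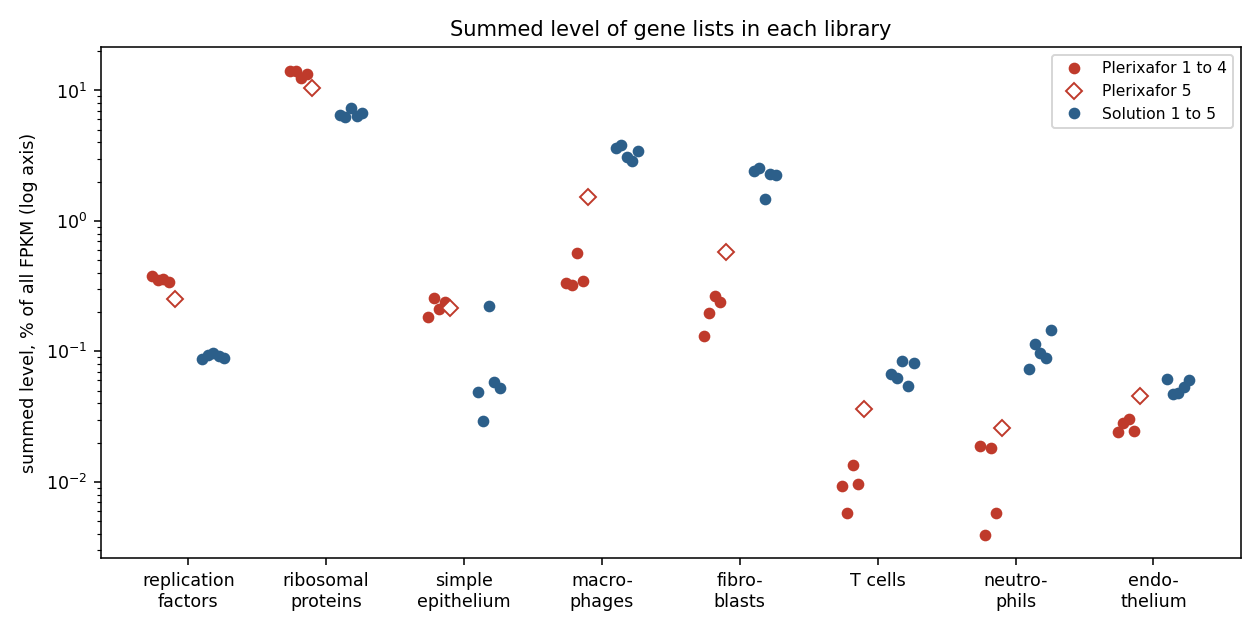
Summed level of 8 gene lists as a percentage of all FPKM in each library, on a log axis, with Plerixafor libraries in red on the left of each pair and Solution libraries in blue on the right. Plerixafor 5, drawn as an open diamond, is the Plerixafor library nearest to the Solution libraries for every list but simple epithelium.

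Epithelial markers, read in whole tumour, went both ways. The simple epithelium list made up 0.184% to 0.258% of all FPKM in Plerixafor tumours, against 0.0293% to 0.222% in Solution tumours, and Solution 3, the highest Solution library, lay inside the Plerixafor range. Krt18, a keratin of simple epithelia, had 411, 588, 467, 543 and 482 FPKM in Plerixafor tumours 1 to 5, against 43.2, 24.4, 193, 44.6 and 35.3 FPKM in Solution tumours 1 to 5. All Plerixafor libraries were above all Solution libraries, and Solution 3 was the highest of the Solution group. The log2 fold change was 3.27 ± 0.45 (limma adjusted p 5.05e-05). Krt8, the partner of Krt18, rose with it (363 ± 59.7 FPKM in Plerixafor and 66.2 ± 69.5 FPKM in Solution, log2 fold change 2.87).

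Other epithelial markers went the opposite way. Epcam, an adhesion molecule of most carcinomas, had 3.37, 0.103, 0.289, 0.641 and 2.37 FPKM in Plerixafor tumours 1 to 5, against 12.6, 7.69, 56.7, 14.3 and 10.5 FPKM in Solution tumours 1 to 5. It was near 0 in several Plerixafor libraries, and Solution 3 stood above every other library (log2 fold change -3.02 ± 0.54, limma adjusted p 0.000344). Cdh1, which encodes E-cadherin, had 1.99 ± 1.02 FPKM in Plerixafor and 12 ± 7.76 FPKM in Solution (log2 fold change -2.03), and Krt5, a keratin of basal and squamous epithelia, had 0.484 ± 0.684 FPKM in Plerixafor and 28.1 ± 31.2 FPKM in Solution (log2 fold change -3.72). Krt5 was highest in Solution 3 and Solution 5, at 78.6 and 38.5 FPKM. These libraries also had the highest shares of the skin keratinocyte list, 0.0727% and 0.0567% of all FPKM. Its share was 0.00344% to 0.0048% in the other Solution libraries and 0.0032% to 0.00513% in Plerixafor tumours. Which cells these epithelial transcripts came from was not tested. In all, 3 of 11 tested genes of the simple epithelium list rose and 7 fell, with Perp, a desmosome-associated p53 target, among those that rose (47.3 ± 13.9 FPKM in Plerixafor and 9.78 ± 10.3 FPKM in Solution). Plerixafor tumours held high Krt8 and Krt18 with low Epcam and Cdh1.

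Across all members, limma called 10058 genes at an adjusted p under 0.05, of which 5705 were higher and 4353 lower in Plerixafor. Calls with a change of more than 2-fold numbered 2415 higher (19.9% of all members) and 2360 lower (19.4% of all members). For 8668 genes (71.4%) the 5 libraries of one group lay wholly above the 5 of the other. The median log2 fold change of all members was 0.15. Part of the number of calls follows from the way members were chosen: 376 reached the limit only through all 5 Plerixafor libraries and 329 only through all 5 Solution libraries, and for these a difference had to be found. Among the genes named here these were Tox on the Solution side and, on the Plerixafor side, Afp, Cdc6, Clec2f, Dusp9, H3c8, Itgb6, Klrg2, Mmp24, Phlda2, Sox2, Spry4, Tead4 and the on genes described below. Just inside the limit, 802 genes had exactly 5 libraries at or above an FPKM of 1, with a median mean level of 1.34 FPKM, and just outside it the genes with exactly 4 had 0.911 FPKM.

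The direction of change differed with the level of the gene. Among 1269 members with a mean FPKM under 2, 373 rose and 657 fell, and the median log2 fold change was -0.39. From 10 to 50 FPKM, 2528 rose and 1489 fell, with a median of 0.29. Above 200 FPKM, 143 of 263 rose and 92 fell, with a median of 0.44. Of these abundant genes 56.3% changed by more than 2-fold, against 38.5% of those under 2 FPKM. The 2-fold limit was set on log2(FPKM + 1), which understates the change of low genes. Sizes of change and these 2 shares therefore cannot be compared between levels. Plerixafor libraries also held fewer genes at an FPKM of at least 1, with 11020, 11059, 11279, 11083 and 11907 genes in Plerixafor 1 to 5, against 12024, 11622, 12203, 11833 and 11909 in Solution 1 to 5. Plerixafor 5 lay within the Solution range and the other 4 below it (exact two-sided permutation test, p = 0.0238, n = 5 each, adjusted p = 0.0238 over 3 such tests).

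The most abundant transcripts differed between the groups. The 12 genes with the highest mean FPKM in each group had 3 genes in common, and the 100 highest had 59. In Plerixafor tumours the first was Eef1a1, a translation elongation factor (6268 ± 689 FPKM in Plerixafor tumours and 3274 ± 254 FPKM in Solution tumours), and it was followed by the ribosomal protein gene Rpl8, the galectin gene Lgals1 and ribosomal protein genes. In Solution tumours the first were Lyz2, the lysozyme of macrophages and neutrophils, and Apoe, a lipid carrier made by macrophages.

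Lyz2 had 654, 638, 1194, 705 and 3876 FPKM in Plerixafor tumours 1 to 5, against 9950.0, 10990.0, 6805, 5920.0 and 8682 FPKM in Solution tumours 1 to 5. Plerixafor 5 was more than 3 times any other Plerixafor library and still below all Solution libraries (log2 fold change -2.95 ± 0.47, limma adjusted p 0.000136). Apoe had 173, 265, 271, 309.7 and 1130.0 FPKM in Plerixafor tumours 1 to 5, against 7767, 7530.0, 6770.0, 5842 and 5900.0 FPKM in Solution tumours 1 to 5, again with Plerixafor 5 the highest of its group, and a log2 fold change of -4.31 ± 0.41. Of the Solution group's highest transcripts, the ferritin chains Fth1 (2359 ± 1059 FPKM in Plerixafor and 5781 ± 947 FPKM in Solution) and Ftl1 (2360.0 ± 611 FPKM in Plerixafor and 5657 ± 1092 FPKM in Solution) were high in both groups, though lower in Plerixafor. Psap, the precursor of lysosomal saposins (1005 ± 629.5 FPKM in Plerixafor and 5281 ± 396 FPKM in Solution), Cd74, the invariant chain of MHC class II (1304 ± 1108 FPKM in Plerixafor and 5146 ± 1295 FPKM in Solution), and the cathepsin gene Ctsb (731 ± 346 FPKM in Plerixafor and 3909 ± 493 FPKM in Solution) fell further.

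Rpl8 had 3928, 3710.0, 3011, 3248 and 2273 FPKM in Plerixafor tumours 1 to 5, against 662, 662, 748, 632 and 682 FPKM in Solution tumours 1 to 5. All Plerixafor libraries were at least 3 times every Solution library (log2 fold change 2.23 ± 0.15). Lgals1, a secreted galectin, averaged 2971 ± 687 FPKM in Plerixafor tumours and 631 ± 134 FPKM in Solution tumours (SD, n = 5 each), and Hsp90ab1, the constitutive cytosolic HSP90, 2399 ± 421 FPKM in Plerixafor tumours and 462 ± 43.6 FPKM in Solution tumours. As shares of all FPKM, Eef1a1 took 1.49% in Plerixafor and 0.803% in Solution tumours, Lyz2 took 0.341% in Plerixafor and 2.09% in Solution tumours, and Apoe took 0.103% in Plerixafor and 1.66% in Solution tumours.

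**Figure D2:**
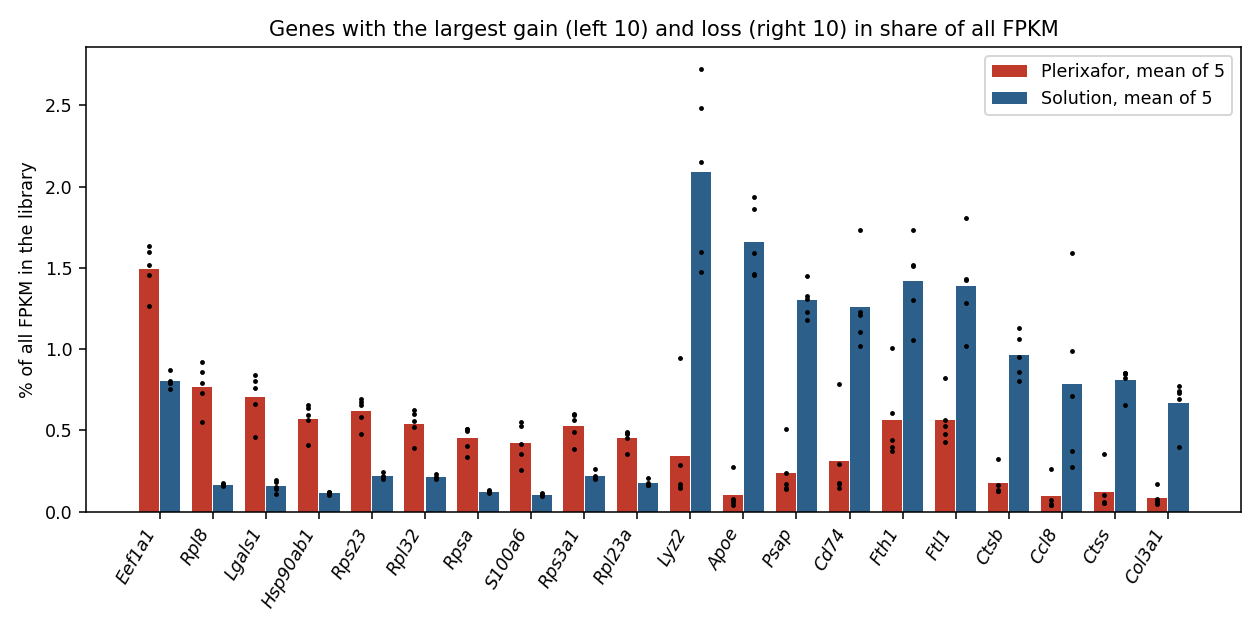
Share of all FPKM in the library for the 10 genes with the largest gain and the 10 with the largest loss, as means of 5 Plerixafor (red, left) and 5 Solution (blue, right) libraries with each library as a dot. Gains are led by Eef1a1 at 1.49% in Plerixafor and 0.803% in Solution, and losses by Lyz2 at 0.341% in Plerixafor and 2.09% in Solution.

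Expression was less concentrated in Plerixafor tumours. The 10 highest genes of each library held 7.58%, 7.54%, 6.77%, 7.29% and 7.65% of all FPKM in Plerixafor 1 to 5, against 13.4%, 14.5%, 12.6%, 12% and 12.3% in Solution 1 to 5. The number of genes that together held the upper 50% of all FPKM was 392, 381, 444, 437 and 454 in Plerixafor 1 to 5, against 310, 278, 290, 329 and 320 in Solution 1 to 5. Neither measure overlapped between groups, and both gave p = 0.00794 in an exact two-sided permutation test, the smallest that this design allows (n = 5 each, adjusted p = 0.0119 over 3 tests). Plerixafor 5 was not apart from its group in these measures.

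On and off genes were asymmetric. A total of 46 genes had an FPKM of at least 5 in all 5 Plerixafor libraries and under 0.5 in all 5 Solution libraries, which is 0.246% of the 18722 genes in the table. None met the reverse rule among the 7414 genes with at least 5 FPKM in all 5 Solution libraries. These genes were chosen by their values in these 10 libraries, so their levels are a description. Pitx1, a homeobox gene of limb and pituitary development, had 77.6, 68.1, 53.3, 63.5 and 42.7 FPKM in Plerixafor tumours 1 to 5, against 0.202, 0.0407, 0.0795, 0.0569 and 0.0966 FPKM in Solution tumours 1 to 5. Every Plerixafor library was far above 5 and the highest Solution library had 0.202 FPKM.

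The other named on genes have various known roles. Tex11, an X-linked gene of meiosis, averaged 42.6 ± 10.4 FPKM in Plerixafor and 0.0525 ± 0.037 FPKM in Solution, Rhox2h, a reproductive homeobox gene, 36.3 ± 7.45 FPKM in Plerixafor and 0.0268 ± 0.0367 FPKM in Solution, and Dcaf8l, an X-linked gene, 54.7 ± 10.2 FPKM in Plerixafor and 0.0884 ± 0.0696 FPKM in Solution. Cldn6, a claudin of embryonic epithelia, had 39.4 ± 15.3 FPKM in Plerixafor and 0.242 ± 0.139 FPKM in Solution, and Cox7b2, a cytochrome oxidase subunit of the testis, 37.5 ± 8.25 FPKM in Plerixafor and 0.0974 ± 0.0969 FPKM in Solution. Lists of germline genes went different ways. Rhox genes rose in all 4 tested cases, of 15 in the table. Tex genes rose in 5 of 7 tested, of 27 in the table, with none lower. Rhox2h, Rhox2g, Rhox2d and Tex11 are on genes that entered only through the Plerixafor libraries, so their calls had to be found. These counts are therefore a description, and the 47.0% of all members that rose is no measure for them. By contrast, of 4 tested MAGE genes none rose and 3 fell, and of 4 tested Xlr, Nxf and Dcaf8l genes 2 rose and 2 fell. From the 32 germ cell and pluripotency genes in the table only Sox2 was tested. Fthl17e, a ferritin-like gene, was the only 1 of the 46 listed at 0 in all 5 Solution libraries, at 24.5 FPKM in Plerixafor, and was chosen after its values were seen. Of the 45 genes with a RefSeq entry, 9 lay on the X chromosome, against 385 of 12129 members (3.17%). The 9 include the relatives Rhox2h, Rhox2g and Rhox2d, which may not be independent cases. X-linked members as a whole went both ways, with 166 higher and 154 lower.

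Rhox2h has close relatives. RefSeq promoter windows of Rhox2h and Rhox2g were identical at 271 of 284 overlapping bases (95.4%), and those of Rhox2d matched the others at 72.6% and 73.0%. The transcripts were not compared, and whether the copies share reads was not tested. A further 39 genes fell just outside the rule, with a highest Solution value of 0.5 to 1 FPKM, among them Sox2 and Cdc6. On the other side, the nearest to off was Col7a1, the anchoring fibril collagen, with at most 1.22 FPKM in any Plerixafor library and a mean of 14.45 in Solution. Without Plerixafor 5, 10 genes met the off rule, and without Solution 3, 1 gene did.

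The 46 genes were then read in libraries that the rule did not use. In Combination against anti-PD-1, 45 of the 46 were called higher by limma, where 41.5% of all members were, and 44 had at least 5 FPKM in all 5 Combination libraries. Their median level, as a percentage of the Plerixafor mean, was 108, 110, 98.3, 113 and 68.1 in Plerixafor 1 to 5 and 91.3 to 117 in Combination. It was 0.173 to 0.503 in Solution, and 0.42, 0.945, 0.743, 8.21 and 1.17 in anti-PD-1 1 to 5. By this median anti-PD-1 4 was the highest of the libraries without Plerixafor, with single genes at 5.93% to 15.8% of the Plerixafor mean. Single genes did not all follow it, since they spanned 0% to 577% in anti-PD-1 1, where Slc38a3, an amino acid transporter gene chosen after its values were seen, had 40.79 FPKM, against 0.7309 FPKM in anti-PD-1 4.

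**Figure D3:**
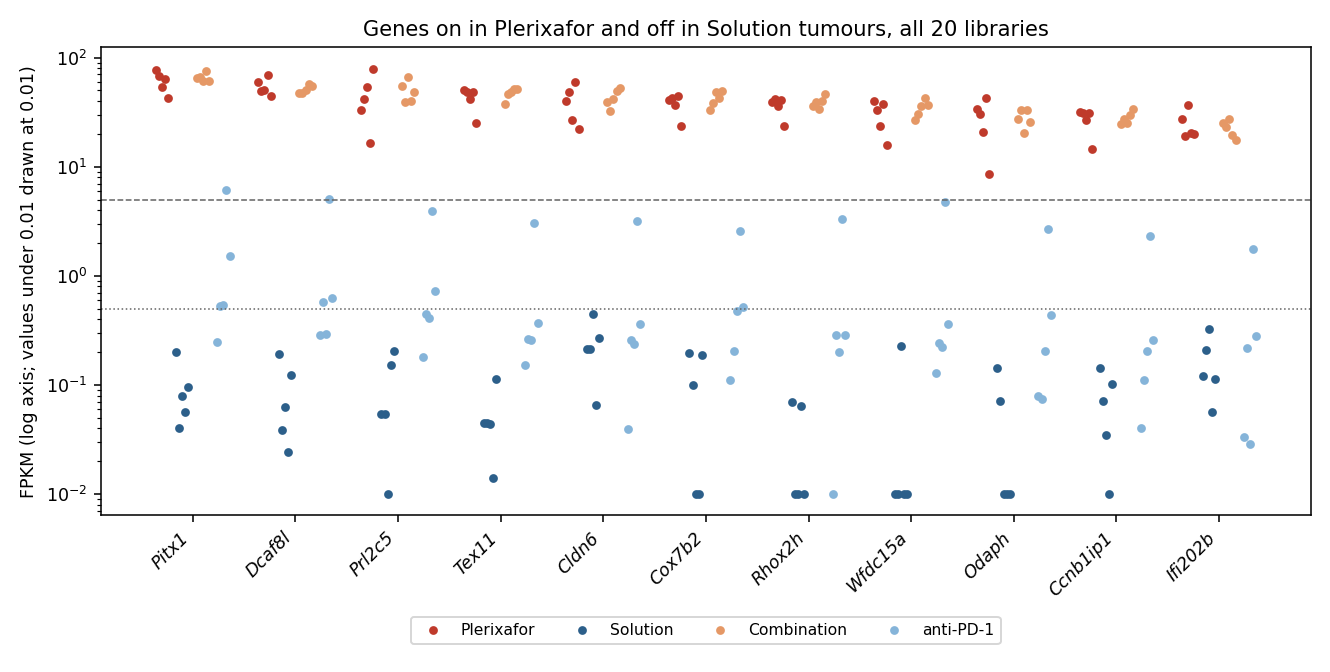
FPKM of 11 genes that are on in Plerixafor and off in Solution, in all 20 libraries on a log axis, with Plerixafor, Solution, Combination and anti-PD-1 from left to right for each gene. The dashed and dotted lines are the limits of 5 and 0.5 FPKM, and Combination libraries lie at the level of Plerixafor libraries.

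The 10 largest rises and the 10 largest falls among all members were read by library. The largest rise was that of Rhox5, an X-linked homeobox gene of the testis and placenta, with 529, 532, 452, 536 and 302 FPKM in Plerixafor tumours 1 to 5, against 1.43, 0.498, 0.426, 0.174 and 1.3 FPKM in Solution tumours 1 to 5. The highest Solution library had 1.43 FPKM, and the log2 fold change was 8.09 ± 0.23 (limma adjusted p 3.36e-09). Bmp4, a morphogen of the TGF-beta family, had 97.3, 139, 125, 154 and 82.9 FPKM in Plerixafor tumours 1 to 5, against 0.654, 0.342, 0.796, 0.343 and 1.1 FPKM in Solution tumours 1 to 5, at a log2 fold change of 6.18 ± 0.19. Both were lowest in Plerixafor 5 and clear of every Solution library.

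Prl2c2, a placental hormone of the prolactin family known as proliferin, had 99, 89.5, 383, 63 and 166 FPKM in Plerixafor tumours 1 to 5, against 0.522, 3.57, 0.205, 2.2 and 0.249 FPKM in Solution tumours 1 to 5. The Plerixafor libraries spread widely, with Plerixafor 3 the highest (log2 fold change 6.01 ± 0.52), and its near-identical relatives Prl2c3 and Prl2c5 may share its reads. Slc2a3, a high-affinity glucose transporter, had 278, 324, 288, 274 and 210.0 FPKM in Plerixafor tumours 1 to 5, against 5.33, 4.46, 4.53, 5.49 and 6.51 FPKM in Solution tumours 1 to 5, at a log2 fold change of 5.46 ± 0.12. Gchfr, the feedback regulator of tetrahydrobiopterin synthesis, averaged 99.4 ± 25.6 FPKM in Plerixafor and 0.691 ± 0.474 FPKM in Solution. Of the imprinted and oncofetal genes outside these 10, Phlda2, an imprinted placental gene, had 25.3 ± 8.05 FPKM in Plerixafor and 0.187 ± 0.244 FPKM in Solution (log2 fold change 4.43), and Afp, the fetal liver protein alpha-fetoprotein, 10.8 ± 3.32 FPKM in Plerixafor and 0.289 ± 0.105 FPKM in Solution. The imprinted and oncofetal list went both ways, with 7 higher and 8 lower of 15 tested. Eomes, a T-box factor of trophoblast and of some lymphocytes, rose (35.4 ± 9.96 FPKM in Plerixafor and 4.37 ± 2 FPKM in Solution), while 5 of 8 tested T-box genes and 7 of 9 tested genes of the NK cell list, which also holds Eomes, fell.

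The RefSeq promoter of Rhox5 is shown because it belongs to the gene with the largest rise. It is on the plus strand at chrX:37754358-37754657 of GRCm38.p6 and runs from 250 bases before the start to 50 after it.
Rhox5: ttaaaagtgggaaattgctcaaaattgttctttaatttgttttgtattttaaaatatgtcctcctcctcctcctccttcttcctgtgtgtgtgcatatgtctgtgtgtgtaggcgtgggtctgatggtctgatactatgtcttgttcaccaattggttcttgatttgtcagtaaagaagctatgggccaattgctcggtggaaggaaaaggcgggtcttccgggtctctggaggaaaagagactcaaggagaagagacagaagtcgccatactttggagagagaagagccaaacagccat

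The largest falls were in myeloid and stromal genes. Retnla, a secreted marker of alternatively activated macrophages, had 12.8, 13.9, 9.61, 29.1 and 307 FPKM in Plerixafor tumours 1 to 5, against 1127, 698, 1673, 708 and 1335 FPKM in Solution tumours 1 to 5, a log2 fold change of -5.18 ± 0.81. Chil3, a chitinase-like protein of the same cells, had 5.12, 1.52, 4.57, 4.15 and 651 FPKM in Plerixafor tumours 1 to 5, against 386, 152, 414, 353 and 244 FPKM in Solution tumours 1 to 5. Plerixafor 5 held more Chil3 than any Solution library while the other 4 had at most 5.12 FPKM (log2 fold change -4.56 ± 1.29, limma adjusted p 0.00679). Ear2, an eosinophil-associated ribonuclease (13.2 ± 19.4 FPKM in Plerixafor and 276 ± 129 FPKM in Solution), Cd5l, a macrophage apoptosis inhibitor (1.71 ± 2.57 FPKM in Plerixafor and 59.8 ± 62.7 FPKM in Solution), Ctsk, the collagen-degrading cathepsin (17 ± 18.8 FPKM in Plerixafor and 244 ± 26.9 FPKM in Solution), and Atp6v0d2, a proton pump subunit of osteoclasts and macrophages (5.65 ± 9.14 FPKM in Plerixafor and 96.7 ± 10.9 FPKM in Solution), fell by 4 log2 units or more. Without Plerixafor 5 the log2 fold change was -6.03 for Retnla, -5.99 for Chil3, -5.61 for Ear2 and -5.26 for Atp6v0d2.

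Cell cycle families rose together. Of the 41 tested replication factors, which load and fire replication origins, all rose, at a median log2 fold change of 1.75, and they made up 0.254% to 0.377% of all FPKM in Plerixafor tumours, against 0.0872% to 0.0975% in Solution tumours. All 20 condensin and cohesin genes rose (median 1.79), as did 26 of 28 centromere protein genes (median 1.84) and 15 of 16 Fanconi anaemia genes of crosslink repair. Mcm10, a factor of origin firing, had 30.3, 26.2, 26.8, 26.2 and 14.9 FPKM in Plerixafor tumours 1 to 5, against 0.692, 1.06, 1.08, 0.894 and 0.898 FPKM in Solution tumours 1 to 5. Plerixafor 5 was the lowest of its group and still over 10 times every Solution library (log2 fold change 3.71 ± 0.17, limma adjusted p 3.14e-08).

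Within the cyclins, the members of S phase and mitosis rose, among them Ccna2 (121 ± 34 FPKM in Plerixafor and 5.76 ± 0.983 FPKM in Solution) and Ccnb1 (83.7 ± 22.4 FPKM in Plerixafor and 4.09 ± 0.608 FPKM in Solution), whereas Ccnd2, a D-type cyclin of G1, fell (3.45 ± 2.26 FPKM in Plerixafor and 16.2 ± 2.22 FPKM in Solution, log2 fold change -2.06). The CDK inhibitors split as well. Cdkn2a, which encodes p16 and p19Arf, had 69.6, 87.3, 60.5, 92 and 67.5 FPKM in Plerixafor tumours 1 to 5, against 3.89, 5, 2.56, 9.46 and 1.4 FPKM in Solution tumours 1 to 5. Cdkn1c, the imprinted inhibitor p57, had 0.276, 0.781, 1.15, 0.756 and 5.46 FPKM in Plerixafor tumours 1 to 5, against 37.4, 31.6, 31.1, 35.6 and 28.6 FPKM in Solution tumours 1 to 5. The log2 fold change was 3.96 ± 0.33 for Cdkn2a and -3.92 ± 0.36 for Cdkn1c, and neither gene overlapped between groups.

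The DNA methylation and TET list went both ways, with 5 higher and 5 lower of 13 tested. Dnmt1, the maintenance DNA methyltransferase, rose (105 ± 18.3 FPKM in Plerixafor and 15.1 ± 1.16 FPKM in Solution, log2 fold change 2.70), as did its partner Uhrf1 (80.8 ± 17.2 FPKM in Plerixafor and 5.06 ± 1.07 FPKM in Solution, log2 fold change 3.74), and Dnmt3a, a de novo methyltransferase, fell (2.69 ± 0.432 FPKM in Plerixafor and 6.44 ± 0.384 FPKM in Solution, log2 fold change -1.02). Among histone genes 9 rose and 9 fell of 21 tested. H2ax, a repair-linked variant, rose (61.8 ± 15.3 FPKM in Plerixafor and 16.8 ± 1.69 FPKM in Solution). Of the replication-type genes, whose transcripts mostly lack poly(A) tails, H3c8 was higher (2.47 ± 0.883 FPKM in Plerixafor and 0.0215 ± 0.0481 FPKM in Solution) and H4c9 fell (3.51 ± 0.292 FPKM in Plerixafor and 8.45 ± 0.814 FPKM in Solution).

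Letters known from promoters of cell cycle genes were then counted. RefSeq windows of 300 bases were searched on both strands for TTTCCCGC, TTTGGCGC, TTTCGCGC and TTTGCCGC, forms of the E2F site. At least 1 was found in 14 of 33 replication factor promoters (42.4%) and in 6 of 15 condensin and cohesin promoters (40.0%), against 4.17% of members and 2.32% of all 27025 promoters. The CHR element, searched as TTTGAA or TTCGAA, was found in 53.3% of condensin and cohesin promoters and 37.0% of centromere protein promoters, against 14.1% of members and 19.4% of all promoters. E2F forms on opposite strands can overlap, as in the Mcm5 promoter, and TTCGAA reads the same on both strands. None of 33 promoters of on genes held an E2F form, which is near the background at this number, and CHR was found in 21.2% of them and in 18.2% of replication factor promoters, also near the background. The windows differed in composition, with a median of 6 CG pairs in on genes, 24 in replication factors and 21 in members. A match is a description of the letters and not evidence of binding.

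The promoters of 3 replication genes are shown with their E2F letters in capitals, and those of a condensin and a cohesin gene with their CHR letters in capitals. Mcm5, a helicase subunit (72.2 ± 16.1 FPKM in Plerixafor and 7.86 ± 1.24 FPKM in Solution), lies at chr8:75109259-75109558, Cdc6, a helicase loader (14 ± 2.69 FPKM in Plerixafor and 0.867 ± 0.082 FPKM in Solution), at chr11:98907901-98908200, and Cdt1, its partner (63.8 ± 13.8 FPKM in Plerixafor and 7.91 ± 0.677 FPKM in Solution), at chr8:122567765-122568064. Ncapg, a condensin subunit (22.1 ± 6.21 FPKM in Plerixafor and 1.94 ± 0.484 FPKM in Solution), lies at chr5:45669675-45669974 and Cdca5, the cohesin protector sororin (21.7 ± 4.6 FPKM in Plerixafor and 1.96 ± 0.396 FPKM in Solution), at chr19:6084847-6085146. All 5 are on the plus strand of GRCm38.p6, and all 5 genes rose by more than 2 log2 units.
Mcm5: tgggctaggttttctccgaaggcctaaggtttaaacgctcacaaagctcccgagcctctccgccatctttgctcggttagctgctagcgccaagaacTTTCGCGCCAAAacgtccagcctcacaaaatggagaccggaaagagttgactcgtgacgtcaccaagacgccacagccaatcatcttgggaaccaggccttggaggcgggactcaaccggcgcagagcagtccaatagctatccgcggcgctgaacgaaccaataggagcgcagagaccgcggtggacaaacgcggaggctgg
Cdc6: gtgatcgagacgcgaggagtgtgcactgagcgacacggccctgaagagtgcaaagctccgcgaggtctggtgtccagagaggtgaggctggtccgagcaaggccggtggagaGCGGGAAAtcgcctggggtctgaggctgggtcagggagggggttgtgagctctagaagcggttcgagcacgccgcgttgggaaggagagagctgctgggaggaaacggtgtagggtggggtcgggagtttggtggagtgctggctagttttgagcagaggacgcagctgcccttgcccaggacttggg
Cdt1: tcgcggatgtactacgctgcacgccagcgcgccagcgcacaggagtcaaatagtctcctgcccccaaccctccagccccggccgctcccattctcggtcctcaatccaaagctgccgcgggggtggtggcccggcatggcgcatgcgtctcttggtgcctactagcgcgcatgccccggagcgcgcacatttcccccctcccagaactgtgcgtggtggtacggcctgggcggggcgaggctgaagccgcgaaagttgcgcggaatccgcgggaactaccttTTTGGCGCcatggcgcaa
Ncapg: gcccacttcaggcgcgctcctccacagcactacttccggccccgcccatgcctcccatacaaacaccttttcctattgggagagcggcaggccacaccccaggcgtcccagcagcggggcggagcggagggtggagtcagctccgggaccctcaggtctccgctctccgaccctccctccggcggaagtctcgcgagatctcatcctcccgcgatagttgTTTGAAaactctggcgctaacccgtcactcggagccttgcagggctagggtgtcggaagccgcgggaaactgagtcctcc
Cdca5: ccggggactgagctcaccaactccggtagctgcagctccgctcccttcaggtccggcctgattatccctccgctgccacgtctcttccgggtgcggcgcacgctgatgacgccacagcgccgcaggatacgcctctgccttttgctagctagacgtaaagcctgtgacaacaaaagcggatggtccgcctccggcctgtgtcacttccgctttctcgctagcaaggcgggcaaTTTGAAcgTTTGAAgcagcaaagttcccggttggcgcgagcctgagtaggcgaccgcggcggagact

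Genes of ribosome production and protein folding rose with the cell cycle genes. Of 36 nucleolar and ribosome assembly genes, 35 rose, at a median of 2.17, among them Ppan, a factor of the large subunit (132 ± 16.3 FPKM in Plerixafor and 11.8 ± 1.7 FPKM in Solution). All 8 subunits of the chaperonin that folds actin and tubulin rose (median 2.09), and 30 of 36 aminoacyl-tRNA synthetase genes rose with none lower. Of the nucleoporins 24 of 27 rose, and only Nup210, a membrane nucleoporin, fell (1.8 ± 1.52 FPKM in Plerixafor and 7.29 ± 1.52 FPKM in Solution). Myc, the transcription factor that drives many of these genes in other settings, had 236, 209, 243, 279 and 161 FPKM in Plerixafor tumours 1 to 5, against 10.6, 11.7, 16.6, 10.8 and 13.2 FPKM in Solution tumours 1 to 5, a log2 fold change of 4.05 ± 0.16.

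The cytosolic ribosomal proteins alone made up 10.5% to 14.2% of all FPKM in Plerixafor tumours, against 6.31% to 7.35% in Solution tumours. Of 61 tested, 53 rose and 5 fell, at a median of 0.93. Rpsa, a small subunit protein, had 1893 ± 359.8 FPKM in Plerixafor and 504 ± 38.6 FPKM in Solution, and among those that fell was Rpl34, a large subunit protein, with 64.7 ± 17 FPKM in Plerixafor and 195 ± 20.4 FPKM in Solution (log2 fold change -1.60). Ribosomal protein genes have many near-identical pseudogenes, so their single values are uncertain. The mitochondrial ribosomal proteins rose in 66 of 78 cases and fell in 2.

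The proteasome showed a clear exception by subunit. Of 45 tested subunits 37 rose and 2 fell, and the 2 that fell were Psmb8 and Psmb9, subunits of the interferon-induced immunoproteasome. Psmb8 had 49, 29.4, 59.3, 30.1 and 128 FPKM in Plerixafor tumours 1 to 5, against 181, 204, 256, 216 and 199 FPKM in Solution tumours 1 to 5, with the groups apart and Plerixafor 5 nearest to the Solution libraries (log2 fold change -2.03 ± 0.34). Psmb9 averaged 29.3 ± 20.6 FPKM in Plerixafor and 100.4 ± 23.3 FPKM in Solution, and the constitutive subunit gene Psmb7 225 ± 38.3 FPKM in Plerixafor and 70.5 ± 4.33 FPKM in Solution.

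Metabolic families rose unevenly. The serine, folate and one-carbon enzymes had the highest median of the metabolic families described here, 2.40, with 14 of 18 higher and 4 lower. Phgdh, the first enzyme of serine synthesis, had 379, 396, 328, 365 and 175 FPKM in Plerixafor tumours 1 to 5, against 15.5, 10.1, 15.4, 10.1 and 9.39 FPKM in Solution tumours 1 to 5, with Plerixafor 5 the lowest of its group (log2 fold change 4.63 ± 0.23). Psat1, the next enzyme of that path, averaged 211 ± 58.6 FPKM in Plerixafor and 9.84 ± 1.25 FPKM in Solution, and Mthfd2, a mitochondrial folate enzyme, 138 ± 40 FPKM in Plerixafor and 9.74 ± 1.05 FPKM in Solution.

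Nucleotide synthesis followed in 20 of 23 genes, with Rrm2, a subunit of ribonucleotide reductase, at 150.0 ± 28.4 FPKM in Plerixafor and 8.44 ± 1.52 FPKM in Solution. Of the sterol synthesis list 21 of 27 rose, and Srebf1, which encodes a lipogenic transcription factor, fell (10.2 ± 2.51 FPKM in Plerixafor and 24.9 ± 5.07 FPKM in Solution). Glycolysis enzymes were more often higher, with 13 higher and 4 lower of 24 tested. Eno1b, an enolase gene, rose (150.4 ± 35.4 FPKM in Plerixafor and 7.21 ± 1.21 FPKM in Solution), as did Pkm, a pyruvate kinase (479 ± 42.8 FPKM in Plerixafor and 229 ± 47 FPKM in Solution). Among the 4 that fell were Ldhb, a lactate dehydrogenase subunit (2.79 ± 2.12 FPKM in Plerixafor and 14.6 ± 3.52 FPKM in Solution), and Hk3, a hexokinase of myeloid cells (17.6 ± 13.4 FPKM in Plerixafor and 80.1 ± 15.5 FPKM in Solution).

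Amino acid transporters divided, with 10 higher and 15 lower of 29. Slc7a1, a carrier of arginine and lysine, rose (62 ± 12.9 FPKM in Plerixafor and 4.05 ± 0.155 FPKM in Solution), and so did Slc38a2, a carrier of glutamine and other neutral amino acids (269 ± 57.3 FPKM in Plerixafor and 30.2 ± 2.58 FPKM in Solution). Respiratory chain genes moved less: 23 of 37 NADH dehydrogenase subunits rose and 5 fell, at a median of 0.39.

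Lysosomal families fell as a block. All 13 tested cathepsins were lower (median -1.98), and the 16 in the table made up 0.541% to 1.31% of all FPKM in Plerixafor tumours, against 2.72% to 3.46% in Solution tumours. Of 19 subunits of the vacuolar proton pump, 16 fell, among them Atp6v1b2 (49.6 ± 9.63 FPKM in Plerixafor and 156 ± 11.3 FPKM in Solution), and 1 rose, Atp6v1c1 (70.3 ± 5.74 FPKM in Plerixafor and 52.7 ± 8.46 FPKM in Solution). The same direction was seen in the macrophage list above, and which cells these transcripts came from was not tested.

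Matrix families fell as well. Of 26 tested collagens 24 fell, at a median of -2.27, and the 44 in the table made up 0.153% to 0.501% of all FPKM in Plerixafor tumours, against 1.15% to 2.27% in Solution tumours. Col3a1, a fibrillar collagen, had 203, 239, 324, 279 and 692 FPKM in Plerixafor tumours 1 to 5, against 3095, 3007, 1687, 2942 and 2802 FPKM in Solution tumours 1 to 5. Plerixafor 5 was the highest of its group and Solution 3 the lowest of its own, without overlap (log2 fold change -3.07 ± 0.31, limma adjusted p 5.68e-06). Lum, the proteoglycan lumican, fell with them (26 ± 20.6 FPKM in Plerixafor and 344 ± 28.7 FPKM in Solution), and of 16 matrix metalloproteinases 14 fell, among them Mmp3 (18.1 ± 15 FPKM in Plerixafor and 254 ± 109.6 FPKM in Solution), while 2 rose, among them the membrane-anchored Mmp24 (3.28 ± 1.41 FPKM in Plerixafor and 0.0728 ± 0.0553 FPKM in Solution).

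Adhesion families did not move as blocks. Itga3, a laminin-binding integrin chain of epithelia, had 89.5, 79.9, 87, 62.1 and 52.2 FPKM in Plerixafor tumours 1 to 5, against 2.46, 1.64, 4.99, 2.16 and 2.65 FPKM in Solution tumours 1 to 5, a log2 fold change of 4.34 ± 0.22. Itga6, another laminin-binding chain (84.9 ± 21.7 FPKM in Plerixafor and 12.3 ± 1.57 FPKM in Solution), and Itgb6, an epithelial chain (5.44 ± 0.588 FPKM in Plerixafor and 0.139 ± 0.0926 FPKM in Solution), rose too. Itgb2, the leukocyte integrin chain, which was chosen after its values were seen, fell (60 ± 47.5 FPKM in Plerixafor and 256 ± 23.8 FPKM in Solution). In all 7 integrins rose and 11 fell of 22, and 14 fell without Plerixafor 5.

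Laminin chains, which several of these receptors bind, divided as well. The laminin chain gene Lama5, typical of epithelial basement membrane, rose (24.4 ± 1.53 FPKM in Plerixafor and 4.99 ± 2.27 FPKM in Solution), as did Lamb1 (149.6 ± 21.6 FPKM in Plerixafor and 61.6 ± 11.2 FPKM in Solution), and Lama4, a chain of vessel and muscle basement membrane, fell (8.92 ± 2.65 FPKM in Plerixafor and 41.5 ± 8.47 FPKM in Solution). Of the claudins, tight junction proteins, Cldn12 rose (18.7 ± 4.77 FPKM in Plerixafor and 2.76 ± 0.161 FPKM in Solution) and Cldn5, the endothelial claudin, fell (3.89 ± 4.03 FPKM in Plerixafor and 16.5 ± 4.83 FPKM in Solution). Among galectins Lgals7, a galectin of squamous epithelia, rose (251.7 ± 105 FPKM in Plerixafor and 17 ± 18.5 FPKM in Solution, log2 fold change 4.44) and Lgals3, a galectin of macrophages and epithelia, fell (477 ± 85.3 FPKM in Plerixafor and 1113 ± 170.0 FPKM in Solution, log2 fold change -1.23).

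**Figure D4:**
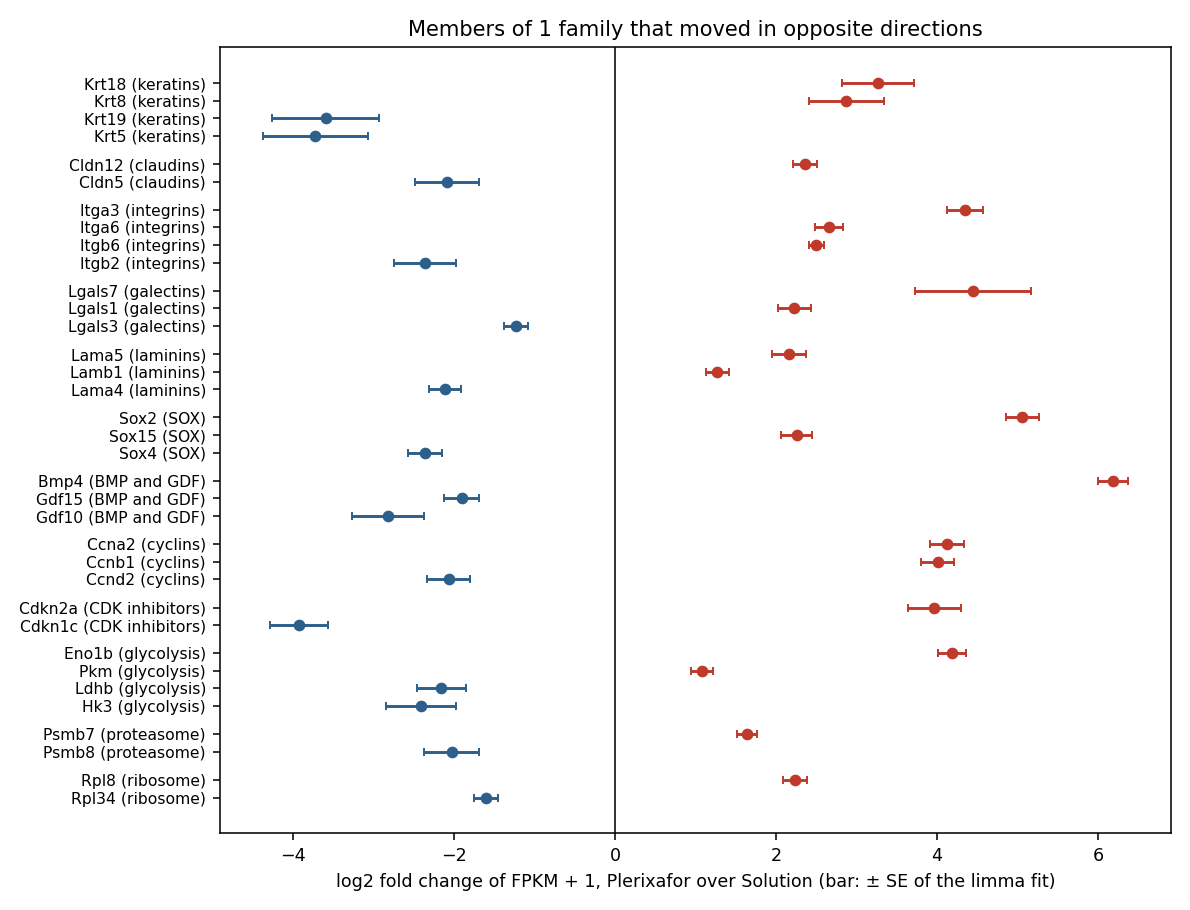
Log2 fold change of FPKM + 1, Plerixafor over Solution, with bars of ± 1 SE from the limma fit, for members of 12 families that moved in opposite directions. Points right of 0 in red are higher in Plerixafor and points to the left in blue are lower, as with Cdkn2a at 3.96 and Cdkn1c at -3.92.

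Signalling families were mostly lower, with single members that rose strongly. Of 11 BMP and GDF ligands 9 fell, such as Gdf10 (1.29 ± 1.83 FPKM in Plerixafor and 13.9 ± 7.43 FPKM in Solution) and the stress-induced Gdf15 (0.824 ± 0.383 FPKM in Plerixafor and 5.94 ± 1.89 FPKM in Solution), and 2 rose, Bmp4 and Gdf11. Of the BMP antagonists and ID genes, 5 rose and 7 fell of 14 tested, and Id1, a transcription inhibitor that BMP signals induce, was among those that rose (178 ± 36.5 FPKM in Plerixafor and 8.33 ± 1.3 FPKM in Solution, log2 fold change 4.25). The insulin-like growth factor system had 5 higher and 6 lower of 14. Igf1r, the signalling receptor, rose (10.9 ± 0.673 FPKM in Plerixafor and 3.4 ± 0.467 FPKM in Solution) and Igf2r, the receptor that degrades IGF2, fell (6.16 ± 2.34 FPKM in Plerixafor and 33.3 ± 7.61 FPKM in Solution), while the ligand gene Igf2 rose (18.5 ± 3.69 FPKM in Plerixafor and 2.59 ± 2.21 FPKM in Solution).

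The dual-specificity phosphatases and Sprouty genes, several of which restrain MAP kinase signalling, divided, with 15 higher and 6 lower of 25. Dusp9, a phosphatase of ERK, had 17.1 ± 4.64 FPKM in Plerixafor and 0.667 ± 0.206 FPKM in Solution, and the feedback inhibitor Spry4 13.7 ± 4.37 FPKM in Plerixafor and 0.737 ± 0.106 FPKM in Solution, whereas its relative Spry1 fell (1.87 ± 0.566 FPKM in Plerixafor and 5.85 ± 1.51 FPKM in Solution). Fgfr1, a growth factor receptor of mesenchymal cells, fell as well (6.58 ± 4.03 FPKM in Plerixafor and 40.7 ± 3.56 FPKM in Solution). Of the 32 TNF superfamily members 25 fell, and the 4 that rose included Tnfrsf12a, the TWEAK receptor (167 ± 29.4 FPKM in Plerixafor and 19.6 ± 4.01 FPKM in Solution), and Tnfrsf10b, the TRAIL receptor (38.8 ± 10.9 FPKM in Plerixafor and 2.75 ± 0.629 FPKM in Solution). Tnfsf12, which encodes TWEAK, the ligand of Tnfrsf12a, fell (2.05 ± 1.36 FPKM in Plerixafor and 14.2 ± 0.748 FPKM in Solution).

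The authors' annotation marks 841 members as transcription factors, of which 404 rose and 270 fell, at a median of 0.19, shares near the 47.0% higher and 35.8% lower of all members. The E2F family rose in 9 of 10 cases (median 1.53), and the MYB family in 18 of 23. The zinc finger C2H2 family had 170 higher and 89 lower of 347, with the higher share again near that of all members. Of the interferon regulatory factors so annotated, none of 9 rose and 5 fell.

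Some single regulators were near absent in Solution tumours. Sox2, a pluripotency and squamous lineage factor, had 43.8, 45.4, 33, 43.7 and 28.1 FPKM in Plerixafor tumours 1 to 5, against 0.0873, 0.943, 0.0429, 0.0204 and 0 FPKM in Solution tumours 1 to 5. Solution 2 was the highest of its group, at under 1 FPKM (log2 fold change 5.06 ± 0.20). Klf5, a factor of proliferating epithelia, rose (43.5 ± 14.3 FPKM in Plerixafor and 2.16 ± 1.1 FPKM in Solution), as did Tead4, a trophoblast and Hippo pathway factor (10.9 ± 2.29 FPKM in Plerixafor and 0.804 ± 0.159 FPKM in Solution), and Foxm1, a driver of mitotic genes (27.1 ± 5.79 FPKM in Plerixafor and 2.23 ± 0.335 FPKM in Solution). Sox4, a factor of progenitor and mesenchymal cells, fell (2.38 ± 1.36 FPKM in Plerixafor and 15.7 ± 2.69 FPKM in Solution), and so did Foxp3, the factor of regulatory T cells (1.05 ± 0.603 FPKM in Plerixafor and 3.17 ± 1.01 FPKM in Solution).

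Most families of immune receptors fell. The 11 Toll-like receptors, the 9 Fc receptors and the 12 Siglec, PIR and LILR genes were all lower, and so were 19 of 20 H2 genes, 17 of 20 complement genes and 23 of 27 interleukin receptors. The H2 genes made up 0.338% to 1.66% of all FPKM in Plerixafor tumours, against 2.37% to 3.6% in Solution tumours. H2-D1, a class I heavy chain, averaged 514 ± 371 FPKM in Plerixafor and 2502 ± 298 FPKM in Solution, Tlr8, an endosomal receptor of RNA, 5.4 ± 3.98 FPKM in Plerixafor and 28.2 ± 3.12 FPKM in Solution, and Trem2, a lipid receptor of macrophages, 19.4 ± 13.4 FPKM in Plerixafor and 213 ± 26.8 FPKM in Solution. Of 14 chemokine receptors 12 fell, and Cxcr4 was 1 of them.

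Against that direction, 3 of 17 killer lectin-like receptor genes were higher and 11 lower, the higher ones including Klra4 (11.9 ± 4.55 FPKM in Plerixafor and 0.888 ± 0.494 FPKM in Solution) and Klrg2 (3.71 ± 1.21 FPKM in Plerixafor and 0.0877 ± 0.035 FPKM in Solution). Likewise 3 of 22 C-type lectin genes rose, among them Clec2f (12.8 ± 3.24 FPKM in Plerixafor and 0.183 ± 0.0714 FPKM in Solution), and 2 of 31 chemokine genes. Cx3cl1, a membrane-bound chemokine that attracts monocytes and T cells, had 71.5, 56.6, 50.4, 66.2 and 33.9 FPKM in Plerixafor tumours 1 to 5, against 5.91, 5.44, 18.1, 5.6 and 4.89 FPKM in Solution tumours 1 to 5. Solution 3 was the highest of its group and below every Plerixafor library (log2 fold change 2.78 ± 0.32, limma adjusted p 1.53e-05). The chemokine ligands together made up 0.149% to 0.635% of all FPKM in Plerixafor tumours, against 0.878% to 2.39% in Solution tumours, and the monocyte attractant Ccl8 had 391 ± 388 FPKM in Plerixafor and 3247 ± 2278 FPKM in Solution.

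Interferon-induced families changed less uniformly. Of 19 guanylate-binding and IRG GTPases 6 fell and 1 rose, and the number that fell was 10 without Plerixafor 5. The family made up 0.0527% to 0.248% of all FPKM in Plerixafor tumours, against 0.126% to 0.226% in Solution tumours. Gbp10, the member that rose, had 9.75, 4.11, 20.8, 3.36 and 14.9 FPKM in Plerixafor tumours 1 to 5, against 1.25, 2.68, 2.82, 2.07 and 1.4 FPKM in Solution tumours 1 to 5, so that Plerixafor 1, 3 and 5 were high and Plerixafor 2 and 4 lower (log2 fold change 1.69 ± 0.42).

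Some abundant genes had nearly the same level in both groups. Of the 832 members with a mean of at least 50 FPKM in both, the smallest differences were those of Atp5a1, a subunit of the mitochondrial ATP synthase (206 ± 20.3 FPKM in Plerixafor tumours and 207 ± 23.3 FPKM in Solution tumours), Rab8a, a GTPase of vesicle transport (54 ± 2.91 FPKM in Plerixafor tumours and 53.9 ± 2.77 FPKM in Solution tumours), and Lrp10, an endocytic receptor (58.8 ± 2.16 FPKM in Plerixafor tumours and 58.8 ± 1.02 FPKM in Solution tumours). Pfn1, the actin regulator profilin, had 576 ± 29.2 FPKM in Plerixafor tumours and 575 ± 39.7 FPKM in Solution tumours, and Serp1, a membrane protein of the endoplasmic reticulum, 112 ± 7.33 FPKM in Plerixafor tumours and 112 ± 7.06 FPKM in Solution tumours (SD, n = 5 each). They were chosen for this likeness, so their levels are a description. It depends on the scaling: under quantile normalisation Rab8a was lower by limma, at -0.174 (adjusted p 0.0156), as were Lrp10 at -0.17 (adjusted p 0.0205) and Serp1 at -0.164 (adjusted p 0.0368).

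The same contrast with the PD-1 antibody in both groups, Combination against anti-PD-1, shares no library with the first. Limma called 8149 of the members there (67.1%), 5036 higher and 3113 lower. Of the 10058 genes called in Plerixafor against Solution, 9444 (93.9%) had the same sign there. In both contrasts 7600 genes were called in the same direction, which is 75.6% of the first list and 93.3% of the second, and 17 were called in opposite directions. For the CXCR4 axis the log2 fold changes there were -1.84 for Cxcr4, -1.61 for Cxcl12 and 0.13 for Ackr3.

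Of the genes described above, the log2 fold changes in Combination against anti-PD-1 were 3.63 for Mcm10 (against 3.71 in Plerixafor against Solution), 4.65 for Phgdh (against 4.63), -2.94 for Apoe (against -4.31), -1.13 for Chil3 (against -4.56) and -0.05 for Epcam (against -3.02). No gene passed in the limma test of the difference between the contrasts, with 1803 (14.8%) at an unadjusted p under 0.05. With array weights 3930 genes passed, and leaving out a library of the anti-PD-1 group gave 828 for anti-PD-1 4 and 2 for anti-PD-1 3. The skeletal muscle list made up 0.0433% to 23.4% of all FPKM in anti-PD-1 tumours (median 7.04%) and 0.00322% to 0.291% in Combination tumours (median 0.135%). It made up 0.0114% to 0.298% in Plerixafor tumours (median 0.184%) and 0.00218% to 0.372% in Solution tumours (median 0.0145%), so these 2 groups overlapped. The part of this list in the comparison of the contrasts was not tested.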

How the data were processed

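Of 20 U14 tumour RNA libraries, prepared with a stranded mRNA kit and read on an Illumina instrument per the labels' protocols, 5 Plerixafor and 5 Solution libraries make the main comparison. The authors deposited 1 table of FPKM values with 18722 genes by symbol, and no column belonged to another sample. The submitters' processing notes list DESeq2 1.28.1, StringTie 2.1.4, HTSeq 0.11.2 and HISAT2 2.1.0 and the build GRCm39, with no role or order given. Whether strand was used in counting is not stated, so overlapping, antisense and near-identical genes can share reads. Divided by the smallest step of their gene, the FPKM values came out whole (tolerance 0.02) for 18722 of 18722 genes, and so gave the depth of each library. The reads so recovered served 1 alternative fit, limma-voom, which called 10031 genes. Depth limits low genes most, and where intervals are not given the replicate spread is the error.

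Values were taken as log2(FPKM + 1) and fitted in R 4.3.3 by limma 3.58.1 with a trended prior (10 libraries, 8 residual degrees of freedom), with Benjamini-Hochberg adjustment over all 12145 members and a threshold of 0.05. No sample was dropped. The contrast of Combination with anti-PD-1 came from a separate fit of those 10 libraries. Only the test of the difference between the contrasts came from a fit of all 20 libraries. Values per library were compared by exact two-sided permutation (scipy 1.17.1, Python 3.11.15). On simulated data with 12145 genes, limma recovered 77 of 100 genes changed 2-fold and 100 of 100 changed 4-fold in Plerixafor against Solution, with 6 false calls. The simulation gave all genes the same dispersion and had no outlying library. It also changed far fewer genes than were called here, so its rates do not carry over to these data. No 2 libraries of a group were copies: the mean chi-square per gene was at least 16.72 for every pair.

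The members, the 103 gene families and the tests were chosen with earlier results of these data known. Of 2759 family genes in the table, 1872 were members and tested; a gene that entered only through the group where it is high had to differ. Families are described by counts and medians, without a test of the family. Named genes were the CXCR4 axis with Pdcd1, Tox, Jak2 and Stat3; the 10 largest rises and falls, leaving out Gm and Rik models; the 12 highest on genes by mean level, of which 11 are plotted; the 12 highest genes of each group and the 10 largest gains and losses in share; up to 4 members of each described family with the smallest p and up to 3 that moved against it; and the 5 abundant genes with the smallest change. Itgb2, Fthl17e, Col7a1 and the genes of the printed promoters were chosen after their values were seen, as were other family members named as examples. Some genes that this rule names are not reported here. Promoters came from RefSeq on GRCm38.p6, another build than that of the table, and were matched by symbol only. Alternatives were other pseudocounts, filters, scalings, array weights, a fit of all libraries, the replicate number as a block, and leaving out each library.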

Additional observations from a re-analysis of the deposited data

Results flagged for a closer look

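Single libraries stood apart from the rest of their group in 22 of 86 sets of 5 values, by the ratio of the gap between the outermost value and its neighbour to the whole range, against a critical value of 0.71; chance flags about 1 in 20 groups. Plerixafor 5 was the library in 14 of them and Solution 3 in 7.

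Plerixafor 5 was the highest of its group for the summed level of macrophage (0.796), T cell (0.748), endothelial (0.715), cathepsin (0.793), H2 (0.755) and chemokine ligand genes (0.769). It was also the highest for Cxcl12 (0.881), Lyz2 (0.828), Apoe (0.857), Retnla (0.934), Chil3 (0.994), Cdkn1c (0.832) and Col3a1 (0.752), and the lowest for Mcm10 (0.732).

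Solution 3 was the highest of its group for the summed simple epithelium list (0.852), the H2 genes (0.716), Krt18 (0.88), Epcam (0.866) and Cx3cl1 (0.923), and the lowest for Cxcr4 (0.977) and Col3a1 (0.792). Solution 2 was the highest Solution library for Sox2 (0.907), at 0.943 FPKM. What sets these libraries apart was not tested.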

How the results depend on the processing

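Of 126 single-gene results under up to 21 alternatives, 2619 of 2637 values kept their direction and their side of the threshold. Those with a changed sign were all Ackr3, which was at -0.022 under TPM scaling, -0.148 with array weights, -0.052 under median-of-ratios scaling, -0.201 under quantile normalisation, and -0.09 to 0.129 when a library was left out, below 0 in 4 of these fits (without Plerixafor 3, Plerixafor 5, Solution 2 or Solution 3). Stat3 passed in 7 settings (-0.31 to -0.43). Fth1 missed under quantile normalisation, and Atp6v1c1 there and in the fit of all 20 libraries. The 5 abundant genes chosen for a difference near 0 are apart from these: 100 of their 105 values moved by less than the spread between replicates, and under quantile normalisation Rab8a (-0.174), Lrp10 (-0.17), Pfn1 (-0.087) and Serp1 (-0.164) moved by more, as did Lrp10 under median-of-ratios scaling (-0.074). The causes were not tested.

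The count of calls was 9797 to 10270 when a library was left out. With a minimum of 5 FPKM 8879 genes were tested and 2851 were lower, against 4353. Quantile normalisation gave 5232 higher and 4831 lower, and without a filter the median log2 fold change was -0.007. Of 102 families with a median, 20 changed its sign in at least 1 setting, 18 of them only without the filter or with the higher one. No gene met the off rule in the main setting, against 0 to 10 when a library was left out. The difference between the contrasts called 3930 genes with array weights and 0 to 828 when a library was left out. With the replicate number as a block 9829 genes were called. The correlations of same-numbered libraries were -0.382, -0.01, -0.201, -0.174 and 0.074, none over 0.1. The labels do not say whether the numbers pair the libraries, and these few correlations cannot exclude it. Depth limits what can be said of genes near 0.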
